A study of Bos taurus with 24 samples.

Results

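The HOX genes encode homeodomain transcription factors that give cells their position along the head-to-tail and limb axes of the body. They lie in 4 clusters, HOXA to HOXD, and the number in a gene's name is its paralog group, which follows its place in the cluster. Genes of low number sit at the end of a cluster used towards the head, and genes of high number sit at the end used towards the tail, the limb tips and the genitalia. Fibroblasts keep much of the HOX pattern of their body site in culture, so that the set of HOX genes in use is a record of where the skin was taken. The genes described here are the rows of the expression tables whose symbol is HOXA, HOXB, HOXC or HOXD and a number, which gave 34 of 27550 rows with a gene symbol and 59846 rows in all. They comprise 10 HOXA genes on chromosome 4, 8 HOXB genes on chromosome 19, 8 HOXC genes on chromosome 5 and 8 HOXD genes on chromosome 2 of the bovine genome build UMD v3.1. The RefSeq names for cattle hold 39 such genes, and HOXA6, HOXB5, HOXB13, HOXC10 and HOXD13 were not analysed here.

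RNA-Seq had been carried out on dermal fibroblast cultures of 4 Holstein (dairy) and 4 Angus (beef) heifers of the same age, to ask how the breeds differ at rest and after lipopolysaccharide (LPS), the outer membrane molecule by which Gram-negative bacteria are sensed. All cultures came from skin over the shoulder, had been frozen and revived, and were chosen at random from a larger pool of animals. Each was sampled before LPS (0 h) and at 2 h and 8 h with LPS at 100 ng/ml, and lysates of duplicate wells were pooled, so that a sample is 1 animal at 1 hour. The 24 samples thus formed 6 groups of 4. The hours of a breed share the same animals, and both LPS comparisons share the 0 h samples. No untreated culture of 2 h or 8 h was analysed here, so time since the change of conditions and LPS cannot be told apart.

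Total counts per sample were 51014538 to 104406293, so that 3 counts correspond to 0.029 to 0.059 CPM (counts scaled to a common library total), a limit that covers counting error only. In every sample the total exceeded the matched reads, with 75674396 counts and 50393881 matched reads in Angus 1 at 0 h. Some reads were thus counted more than once, and counts are not all separate reads. All 10 fibroblast markers were at 1 CPM or more in at least 12 samples, and their summed level was 56700 to 78400 CPM in the Angus cultures and 88200 to 112000 in the Holstein cultures. Of 8 keratinocyte markers, 1 (TP63) reached that limit, and the summed level was 1.62 to 2.03 CPM in Angus and 2.01 to 14.5 in Holstein. Among the other marker lists, 1 of 6 melanocyte, 1 of 6 endothelial, 1 of 6 leukocyte, 3 of 6 muscle or pericyte, 1 of 4 Schwann cell and 2 of 4 adipocyte genes reached it. In 4 samples (Angus 4, Holstein 2 and Holstein 4 at 0 h and Angus 3 at 2 h) a count of the collagen gene COL1A1 stood for 66.2 to 67.1 bases of coverage, while the remaining 20 had values of 111.8 to 119.0, and the former are called the samples with other COL1A1 counting. Among 15 HOX genes that were on, the bases per count differed less between these samples and the rest. HOXC8 had 92.7 covered bases per count in those 4 samples and 92.6 in the other 20. The gap was widest for HOXB3, at 77.7 and 81.1.

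Most of the HOX genes in use lay in the middle of the clusters. A gene was taken as on when its level, in CPM scaled by the trimmed mean of M-values (TMM), was 1 or more in at least 12 of the 24 samples, which held for 16 of 34 genes. HOXC gave 61.1% of all HOX counts (52.8% to 68.4% over samples), HOXB 23.2%, HOXD 10.1% and HOXA 5.72%. Of paralog groups 4 to 9, 12 of 17 genes were on, against 3 of 8 in groups 1 to 3 and 1 of 9 in groups 10 to 13. These counts and the shares below lack HOXB13, HOXC10 and HOXD13 of groups 10 to 13 and HOXA6 and HOXB5 of groups 4 to 9, which were not analysed. Groups 4 to 9 held 76.1% to 85.9% of the HOX counts of a sample, and groups 10 to 13 held 1.25% to 5.0%. All HOX rows together took 0.0105% to 0.0163% of the counts.

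**Figure D1:**
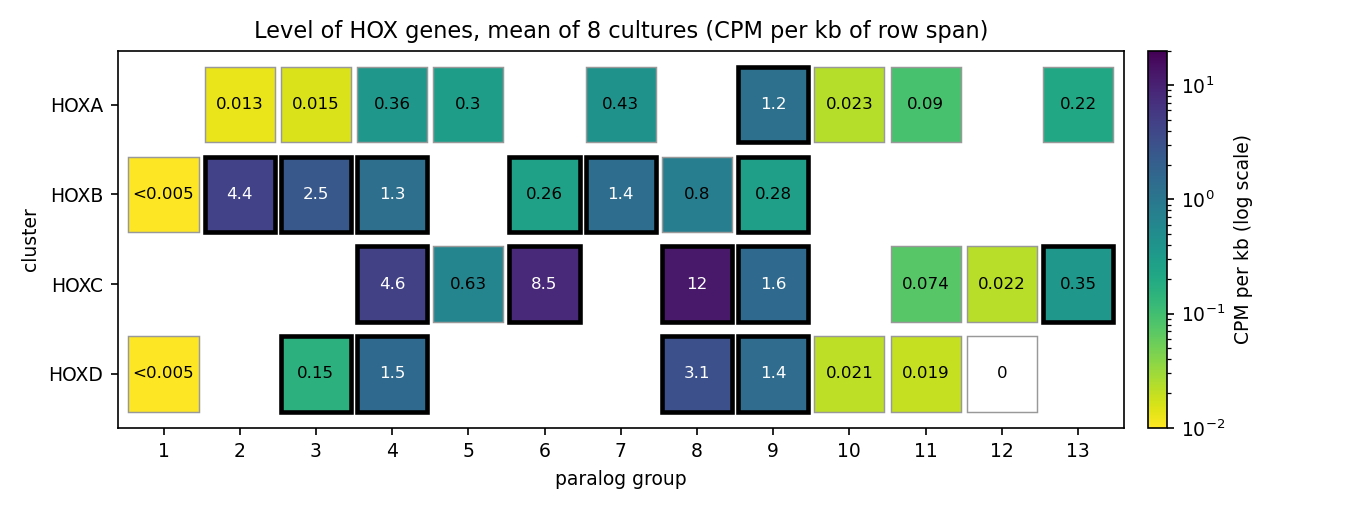
Level of HOX genes by cluster (rows) and paralog group (columns), as the mean over 8 cultures of TMM-scaled CPM per kb of row span, with the value in each box, a logarithmic colour scale and a heavy outline around the 16 genes that were on. Blank places are not shown or were not analysed. The highest values, 12.2 for HOXC8 and 8.47 for HOXC6, lie in the middle of the HOXC cluster, and 8 of the 9 genes of groups 10 to 13 have no heavy outline.

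The HOX genes that were on were ordered by level per kb of row. A row is the span from the start to the end of the gene with its introns, so that a gene with long introns is placed too low. Cluster sums, the trace members and the genes of the lists are given in CPM without that scaling. HOXC8 (chr5:26178994-26182524), a gene of thoracic identity in the embryo, was the highest at 12.2 ± 1.59 CPM per kb (SD, n = 8 cultures). HOXC6 followed at 8.47 ± 0.593 CPM per kb, and both lay above the next gene in all 8 cultures. HOXC4 (4.56 CPM per kb) and HOXB2 (4.4) were next and differed by less than the spread between cultures.

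HOXD8 (3.11 CPM per kb) and HOXB3 (2.51) each stood apart from their neighbours in the order. HOXC9, HOXD4, HOXD9, HOXB7, HOXB4 and HOXA9 then formed a run from 1.55 down to 1.24 CPM per kb in which no neighbours differed beyond their spread. HOXC13, HOXB9 and HOXB6 (0.348, 0.282 and 0.263) were a lower run of the same kind, and HOXD3 was last at 0.155. This order holds only the genes that were on, and the limit of 1 CPM takes no account of row length. HOXB8, HOXC5, HOXA7 and HOXA4, which were not on, lay above HOXC13 at 0.803, 0.63, 0.43 and 0.363 CPM per kb. HOXB3 is less certain than the rest, because 64.6% of its row lies under LOC100848766 and the library kit does not mark strand.

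HOXA was the weakest cluster, with only HOXA9 on. Before LPS its level was 5.91, 5.36, 5.07 and 5.02 CPM in Angus 1 to 4 and 3.49, 3.78, 4.49 and 3.64 CPM in Holstein 1 to 4. HOXA4, HOXA5 and HOXA7 lay close under the limit, with 1 CPM or more in 4, 7 and 7 samples, and HOXC5 and HOXB8 did so with 6 and 8. HOXB9, at 1 CPM or more in 14 samples, was the member nearest to the limit from above, followed by HOXD3 with 22. HOXA4 lies wholly inside the row of HOXA3, and HOXC5 shares 62.6% of its row with an interval without a symbol.

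At the head end the clusters differed. HOXB1 and HOXD1 had at most 1 count in any sample, and HOXA2 at most 5. HOXB2, HOXB3 and HOXD3 were on, as was HOXC4, the HOXC gene of lowest number among those analysed. HOXB2, which specifies hindbrain segments together with HOXB1 in the embryo, was the highest gene of HOXB per kb. At the tail end, HOXD12 had 0 counts in all 24 samples. The other trace members ranged from 0.0357 CPM for HOXC12 to 0.362 CPM for HOXA13 on average.

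The same genes were on in nearly all cultures and hours. Of the 16, 15 were also on within each of the 8 cultures (at 1 CPM or more in at least 2 of 3 hours), and HOXB9 was on in 4 cultures. HOXA5, HOXA7 and HOXB8 passed the limit in 3, 1 and 3 cultures. The number on was 15 to 17 in a culture and 15 to 18 in a group. No body site other than the shoulder was analysed here.

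The remaining genes that were on covered the following ranges over the 6 groups. HOXB7 had group means of 3.07 to 3.92 CPM, HOXC9 of 4.22 to 5.79 CPM, HOXD9 of 3.29 to 4.97 CPM and HOXB6 of 2.1 to 3.2 CPM. The low HOXA genes had group means of 0.525 to 1.12 CPM for HOXA4, 0.35 to 1.34 CPM for HOXA5, 0.473 to 1.11 CPM for HOXA7 and 0.405 to 0.593 CPM for HOXA3. HOXB8 had 0.749 to 1.09 CPM and HOXC5 0.793 to 1.1 CPM.

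The cultures of a breed differed from each other in 9 of the 16 genes tested (edgeR likelihood-ratio test of the culture over its 3 hours, false discovery rate, FDR, under 0.05), against 66.6% of all rows. The hours of a culture are not separate animals, so this test describes these 8 cultures. Among the genes that were on, the widest spread was that of HOXC13, a gene of hair and nail formation. Its mean over the hours was 2.42, 4.09, 4.44 and 2.75 CPM in Holstein 1 to 4 and 1.99, 1.53, 2.41 and 1.68 CPM in Angus 1 to 4. Holstein 2 and Holstein 3 were its highest cultures. The highest was 1.83 times the lowest within Holstein and 1.57 times within Angus (FDR = 1.26e-07).

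HOXB9, HOXB3, HOXD3 and HOXD4 came next, with folds of 1.62, 1.55, 1.52 and 1.49 between the highest and the lowest culture of a breed. HOXB9 was at 0.813, 0.946, 0.834 and 1.31 CPM in Angus 1 to 4 and at 1.05, 1.02, 1.43 and 1.5 CPM in Holstein 1 to 4 (FDR = 0.00518). Angus 4 and Holstein 4 were the highest of their breeds, and the breeds overlapped. HOXB3 was at 8.03, 8.98, 10.6 and 6.8 CPM in Angus and 9.37, 10.9, 10.7 and 8.79 CPM in Holstein (FDR = 0.000366), with overlapping breeds as well. HOXD3 was at 2.0, 1.58, 1.75 and 1.88 CPM in Angus and 1.51, 2.03, 1.34 and 1.6 CPM in Holstein, and its cultures were not past the limit (FDR = 0.227). HOXD4 was tightly grouped in Angus, at 3.43, 3.27, 3.62 and 3.52 CPM, and wider in Holstein, at 3.17, 3.99, 2.81 and 2.68 CPM (FDR = 0.00722).

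Between the breeds, HOXA9, HOXC4 and HOXC8 were lower and HOXC13 was higher in Holstein at 1 hour or more, at the FDR limit alone. Of these, only HOXC13 at 2 h was called under the stricter rule given next. Calls required an average above 1 CPM, a fold of 2 or more and an FDR below 0.05 in an edgeR likelihood-ratio test over all rows with Benjamini-Hochberg adjustment. In these bulk samples, fewer cells that use a gene and less RNA per cell cannot be told apart. At 0 h, 0 of 16 HOX genes tested were called, against 3.83% of all rows, and the FDR limit alone was passed by 2 (13.8% of all rows), both lower in Holstein (6.98%). At an unadjusted p under 0.05 there were 3, and the quasi-likelihood F test and DESeq2 also called 0. At 2 h, 1 of 16 was called (4.46% of all rows), at 8 h 0 of 18 (3.26%), and with the 3 hours of an animal summed 0 of 16 (3.41%). The FDR limit alone gave 1 at 2 h (20.1% of all rows), 4 at 8 h (16.5%) and 4 over the summed hours (19.2%), of which 1 was higher and 3 were lower in Holstein, both at 8 h (8.72% and 7.78% of all rows) and over the summed hours (9.65% and 9.57%). The share that passed was near that of all rows at 0 h, at 8 h and over the summed hours, and below it at 2 h. The numbers at an unadjusted p under 0.05 were 8 at 8 h and 5 over the summed hours, and neither other test called a gene there. Leaving out Holstein 3 made 1 called gene at 8 h. The count at the FDR limit at 0 h was 0 without Angus 1, Angus 2, Angus 4, Holstein 2 or Holstein 4, 1 without Holstein 1 and 4 without Angus 3.

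HOXA9, a gene of trunk and limb patterning, had the largest difference among the genes lower in Holstein that passed the CPM filter. At 0 h every Holstein value given above was below every Angus value, and the log2 fold change was -0.47 ± 0.163 (SE, FDR = 0.0349), which did not pass the FDR limit without a CPM filter, without the 4 samples with other COL1A1 counting or in 6 of the 8 fits that left out an animal (Angus 1, 2 or 4, Holstein 1, 2 or 4, FDR up to 0.141). At 2 h the level was 3.75, 2.97, 2.15 and 3.74 CPM in Angus 1 to 4 and 1.96, 2.05, 2.7 and 1.86 CPM in Holstein 1 to 4, and the breeds overlapped at Angus 3 (-0.56 ± 0.243, FDR = 0.0861). At 8 h it was 6.53, 4.69, 5.05 and 6.81 CPM in Angus and 2.98, 2.99, 3.9 and 2.65 CPM in Holstein, without overlap (-0.88 ± 0.199, FDR = 0.000518). Breeds without overlap were common, at 24% of all rows at 2 h, and the shares at 0 h and 8 h are not reported here. Over the summed hours HOXA9 was 1.59 times lower in Holstein (-0.67 ± 0.174, FDR = 0.00248), and it passed the limit under all 15 alternatives for that comparison. HOXA7, its neighbour, was under the filter in the comparison at 8 h, with 1.29, 0.951, 0.889 and 0.717 CPM in Angus 1 to 4 and 0.669, 0.484, 0.457 and 0.28 CPM in Holstein 1 to 4, without overlap. In the fit without the filter it was lower in Holstein by 1.03 at that hour (FDR = 0.0333), and HOXA9 by 0.89. HOXA7 did not pass there at 0 h (FDR = 0.556), at 2 h (FDR = 0.943) or over the summed hours (FDR = 0.156).

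HOXC4 and HOXC8 were lower in Holstein too. HOXC4 overlapped between the breeds at 0 h, where Angus ranged from 10.8 to 13.2 CPM and Holstein from 7.56 to 11 CPM, and at 2 h, with ranges of 6.29 to 9.79 and 4.76 to 7.68 CPM. HOXC4 at 8 h was at 13.6, 13.1, 11.9 and 13.2 CPM in Angus 1 to 4 and 8.1, 8.48, 10.2 and 8.73 CPM in Holstein 1 to 4, without overlap (-0.54 ± 0.129, FDR = 0.000937, past the limit under all 15 alternatives). Over the summed hours its difference was -0.45 ± 0.14 (FDR = 0.0125), and it was not past the limit without Angus 1, Angus 2, Holstein 1 or Holstein 2 (FDR up to 0.0659). HOXC8 at 0 h was at 49.9, 50.2, 54.7 and 55.8 CPM in Angus and 38.9, 43.1, 46.6 and 41.1 CPM in Holstein, without overlap (-0.31 ± 0.106, FDR = 0.0308), and the same 6 fits as for HOXA9 lost it, as did the fits without a CPM filter and without the 4 samples with other COL1A1 counting. At 2 h the breeds overlapped, at 45.8, 42.7, 46.8 and 55.5 CPM in Angus and 45.1, 40.4, 47.4 and 40.4 CPM in Holstein. At 8 h it was at 38.8, 34, 38.9 and 50 CPM in Angus and 29.3, 29.6, 34.5 and 30.6 CPM in Holstein (-0.38 ± 0.136, FDR = 0.0393), lost with the quasi-likelihood test, without a CPM filter and without Angus 1, Angus 4, Holstein 1, Holstein 2 or Holstein 4 (FDR up to 0.132). Over the summed hours HOXC8 differed by -0.30 ± 0.115 (FDR = 0.047), and 8 of 15 alternatives did not pass, among them the fits without Angus 1, Angus 4, Holstein 1, Holstein 2 or Holstein 4 (FDR up to 0.168).

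HOXC13 was the called gene and the member of paralog groups 10 to 13 that was on. At 2 h it was at 1.72, 1.35, 2.52 and 1.7 CPM in Angus 1 to 4 and at 2.96, 4.46, 5.19 and 2.75 CPM in Holstein 1 to 4. The lowest Holstein value was above the highest Angus value. HOXC6, HOXC9 and HOXD8 did not overlap at that hour either, so that 4 of 16 genes did not, against 24% of all rows. The difference was 1.07 ± 0.287 on the log2 scale, a fold of 2.1 (FDR = 0.00313). It passed the FDR limit under all 15 alternatives (FDR at most 0.0279), but the fold was under 2 and the count of called genes 0 without Angus 2, Holstein 2 or Holstein 3.

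At 0 h HOXC13 was at 2.03, 1.86, 3.07 and 2.1 CPM in Angus and 2.11, 4.64, 4.69 and 3.37 CPM in Holstein, where Angus 3 overlapped Holstein 1 (0.71 ± 0.294, FDR = 0.0873). At 8 h it was at 2.22, 1.39, 1.64 and 1.24 CPM in Angus and 2.19, 3.17, 3.45 and 2.12 CPM in Holstein, where Angus 1 overlapped (0.75 ± 0.266, FDR = 0.0359), and the quasi-likelihood test, scaling by total counts, the fit without a CPM filter and the fits without Angus 2, Angus 3, Angus 4, Holstein 2 or Holstein 3 did not pass it (FDR up to 0.142). Over the summed hours the difference was 0.81 ± 0.258 (FDR = 0.0149), and it was not past the limit without Angus 1, Angus 2, Angus 4, Holstein 2 or Holstein 3 (FDR up to 0.07). HOXC13 is also used by cells of the hair follicle, so the listed keratinocyte markers were read beside it. KRT5 was at 9.28 CPM in Holstein 1, 0.304 in Holstein 2, 0.58 in Holstein 3 and 0.0349 in Holstein 4, and at 0.0107 to 0.0619 CPM in the Angus cultures. KRT14 was at 2.12 CPM in Holstein 1 and at 0.155 or less elsewhere. DSP and CDH1 were also highest in Holstein 1, at 1.08 and 0.282 CPM. TP63 did not follow, at 1.18, 1.17, 1.0 and 1.21 CPM in Holstein 1 to 4 and 0.974 to 1.22 CPM in Angus. KRT10 did not either, at 0.499, 0.461, 0.57 and 0.608 CPM in Holstein 1 to 4 and 0.423 to 0.587 CPM in Angus. EPCAM and KRT1 were at 0.0133 CPM or less in every culture. Holstein 1, highest in KRT5 and KRT14, was the lowest Holstein culture in HOXC13. Holstein 2 and Holstein 3, next highest in KRT5, were the highest cultures in HOXC13. The part of keratinocytes in the difference was not tested.

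**Figure D2:**
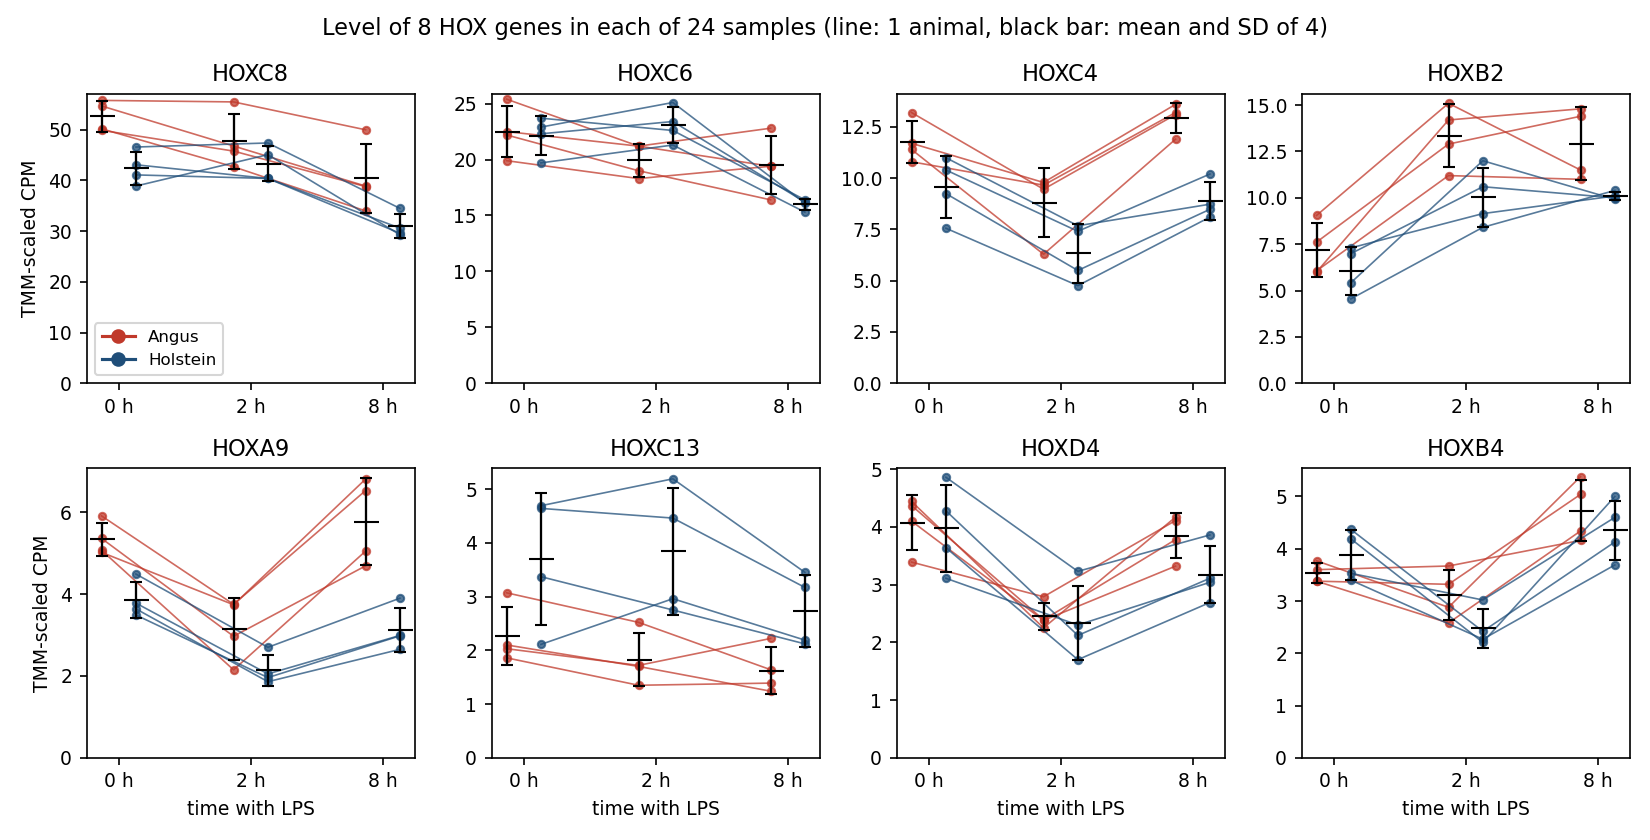
TMM-scaled CPM (vertical axes, from 0) of 8 HOX genes at 0 h, 2 h and 8 h with LPS, 1 point per sample and 1 line per animal, Angus in red and Holstein in blue, with the mean and SD of each group of 4 in black. HOXA9, HOXC4 and HOXD4 dip at 2 h, HOXB2 rises at 2 h and stays up, HOXC8 and HOXC6 are lower at 8 h, and HOXC13 at 2 h has every Holstein point above every Angus point.

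The trace members of the tail end were mostly higher in Holstein. Of the 9 genes of paralog groups 10 to 13, 8 had a higher mean in Holstein, and in 4 of them (HOXC11, HOXC12, HOXC13 and HOXD11) the culture means of the breeds did not overlap. Of these, 7 had a mean of 0.02 to 0.5 CPM, and 3 of the 7 did not overlap. Among all rows in that range, 56.1% had a higher mean in Holstein and 6.21% had all Holstein cultures above all Angus cultures. These genes are under the CPM filter, apart from HOXC13, and were tested over the summed hours in a fit without the filter, where 4.15% of all rows were higher in Holstein at the FDR limit. HOXC11 had 4 to 18 counts in an Angus sample and 8 to 28 in a Holstein sample, and culture means of 0.162, 0.0952, 0.0905 and 0.077 CPM in Angus and 0.18, 0.292, 0.298 and 0.265 CPM in Holstein (1.24 on the log2 scale, FDR = 0.00356). HOXC12 had 13 counts in the 12 Angus samples together and 51 in the 12 Holstein samples (FDR = 0.0108). HOXD11 had 22 and 76 (FDR = 0.021), with few counts per sample behind both genes. HOXA10, HOXA11, HOXA13 and HOXD10 did not pass, with an FDR of 0.106 to 0.47.

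The rows beside HOXC11 followed its direction. An interval without a symbol between HOXC11 and HOXC12 (chr5:26218210-26234885), singled out after its values were seen, was at 10.9, 13, 15.8 and 4.87 CPM in Angus 1 to 4 and 23.5, 24.4, 32.4 and 29.6 CPM in Holstein 1 to 4. At 1.16 CPM per kb it was far above HOXC11 itself (0.0738 CPM per kb). All Holstein cultures lay above all Angus cultures, and the difference was 1.27 on the log2 scale (FDR = 0.00182), past the limit under all 14 alternatives that tested it (FDR at most 0.0345). LOC100847795, which lies between HOXC9 and HOXC11 and was chosen in the same way, had culture means of 1.6 to 1.79 CPM in the Angus cultures and of 2.9 to 3.36 CPM in those of Holstein (0.84, FDR = 4.86e-07). Towards the other end of the cluster, HOXC9 was at 4.81 ± 0.354 CPM in Angus and 5.38 ± 0.325 in Holstein and HOXC6 at 20.6 ± 1.87 and 20.4 ± 1.14 (SD, n = 4 cultures). Neither passed the limit over the summed hours (edgeR, FDR = 0.486 and 0.802), and HOXC4 and HOXC8 were lower in Holstein as given above.

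**Figure D3:**
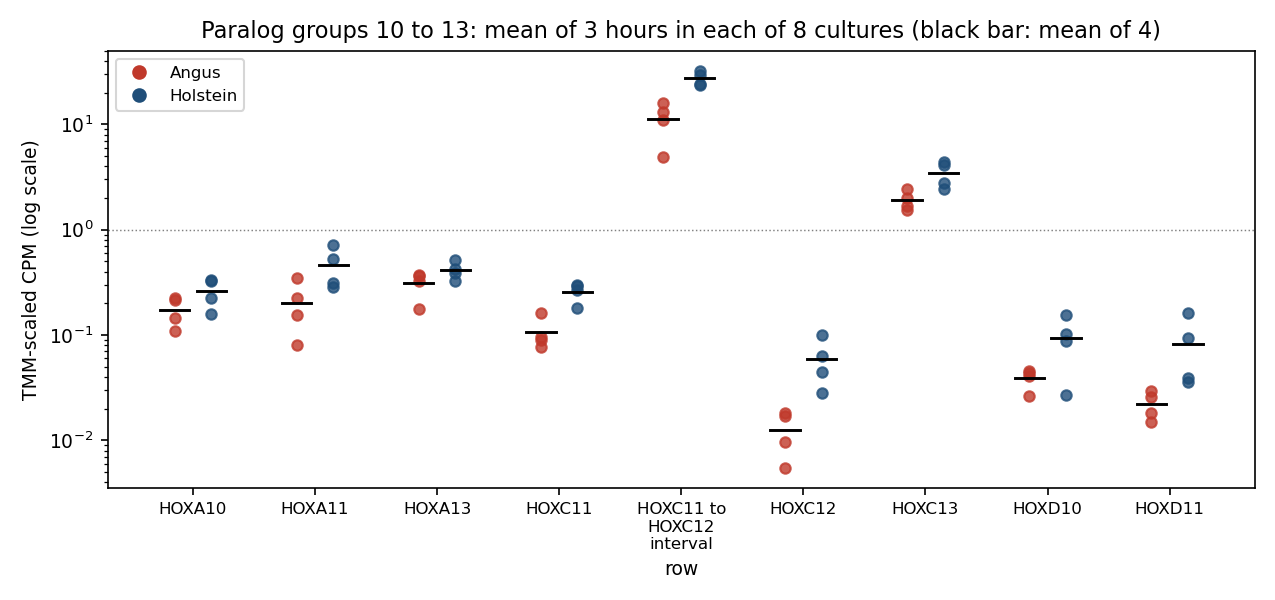
TMM-scaled CPM (logarithmic axis) of the 8 genes of paralog groups 10 to 13 with any count and of the interval between HOXC11 and HOXC12, 1 point per culture as the mean of 3 hours, Angus in red and Holstein in blue, with the mean of 4 cultures as a black bar and 1 CPM as a dotted line. The Holstein points of HOXC11, HOXC12, HOXC13, HOXD11 and the interval lie above all Angus points, and only HOXC13 and the interval are above 1 CPM.

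At 2 h with LPS, most HOX genes tested were lower than at 0 h, and HOXB2 was higher. With the breeds combined, 0 of 15 genes tested were called, against 2.82% of all rows, since no fold reached 2 (10 at an unadjusted p under 0.05, and 0 called by the quasi-likelihood test or DESeq2). The FDR limit alone was passed by 10, against 22% of all rows. Of these 9 were lower (11.2% of all rows) and 1 was higher (10.8%). The median log2 change of the 15 genes was -0.41, against -0.00395 for all rows. All 8 animals were lower for 8 of the 15 genes, against 18.3% of all rows. With the animal as a replicate block, 11 genes passed the FDR limit, and so did 47.5% of all rows.

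HOXA9 fell furthest among the genes that passed the CPM filter, by 0.80 ± 0.181 on the log2 scale (1.74-fold, FDR = 0.000127), from the 0 h to the 2 h values listed above, and every animal was lower at 2 h. HOXD4, next to HOXD3 in its cluster, was at 3.39, 4.1, 4.44 and 4.37 CPM in Angus 1 to 4 at 0 h and at 2.79, 2.38, 2.25 and 2.39 CPM at 2 h. In Holstein 1 to 4 it was at 4.28, 4.86, 3.11 and 3.64 CPM at 0 h and at 2.12, 3.23, 2.3 and 1.7 CPM at 2 h. It was lower in all 8 animals, by 0.76 ± 0.141 (FDR = 1.87e-06), and the hours overlapped only where Holstein 2 at 2 h lay above Holstein 3 at 0 h.

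HOXD3 went from 2.32, 1.71, 2.36 and 2.06 CPM to 1.75, 1.37, 1.16 and 1.75 CPM in Angus 1 to 4. In Holstein 1 to 4 it went from 2.35, 3.13, 1.85 and 2.03 CPM to 0.724, 1.7, 1.31 and 1.28 CPM. All 8 animals fell, by 0.70 ± 0.178 in the fit (FDR = 0.000923). HOXD8, the highest HOXD gene, went from 4.93, 4.39, 5.23 and 4.06 CPM to 3.21, 2.63, 3.15 and 2.82 CPM in Angus. In Holstein it went from 5.3, 5.11, 5.28 and 3.59 CPM to 3.28, 3.36, 3.91 and 3.46 CPM. Again all 8 animals were lower, by 0.56 ± 0.121 (FDR = 5.61e-05), and only Holstein 4 at 0 h lay among the 2 h values.

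HOXB3 fell in all 8 animals, from 8.1, 9.96, 12.6 and 7.6 to 5.49, 7.53, 7.48 and 6.45 CPM in Angus and from 10.8, 13.4, 12.1 and 10.3 to 6.95, 8.09, 8.95 and 5.74 CPM in Holstein. The log2 change was -0.59 ± 0.143 (FDR = 0.000421), and LOC100848766, whose row lies over it, changed by -0.69 (FDR = 0.00101). HOXA9, HOXD4, HOXD3, HOXD8 and HOXB3 passed the limit under all 16 alternatives. HOXC4 (-0.50 ± 0.161, FDR = 0.0121) did not pass it without Angus 3 (FDR = 0.0791), whose 2 h sample is 1 of the 4 with other COL1A1 counting, or without those 4 samples (FDR = 0.0902). HOXB4 (-0.41, FDR = 0.0105), HOXD9 (-0.41, FDR = 0.0123) and HOXB6 (-0.36, FDR = 0.0259) also failed in some fits: HOXB4 without Holstein 1 or Holstein 3, HOXD9 without Angus 3 or Holstein 2, 3 or 4, and HOXB6 without Angus 3 or any Holstein animal, with an FDR of at most 0.125. HOXD9 and HOXB6 were also not past it without the 4 samples named, and HOXB6 not without a CPM filter (FDR = 0.1).

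HOXB2 moved the other way. Before LPS it was at 6.0, 6.06, 7.61 and 9.05 CPM in Angus 1 to 4 and 4.55, 7.3, 6.99 and 5.42 CPM in Holstein 1 to 4. At 2 h it was at 14.2, 11.2, 12.9 and 15.1 CPM in Angus and 8.41, 9.15, 10.6 and 12 CPM in Holstein, higher in all 8 animals, with overlap only between Holstein 1 at 2 h and Angus 4 at 0 h. The rise was 0.81 ± 0.155 on the log2 scale, 1.76-fold (FDR = 3.45e-06), and it passed the limit under all 16 alternatives. The interval without a symbol that begins at the base after HOXB2 rose by 0.98 (FDR = 1.78e-09). HOXC6, HOXC8, HOXC9, HOXC13 and HOXB7 were not past the limit, at -0.06, -0.07, -0.17, -0.08 and -0.21 with SEs of 0.087 to 0.298. With the animal as a replicate block HOXC9 passed it (-0.18, FDR = 0.0389) and was lower in all 8 animals.

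The HOXA genes just under the filter were lower at 2 h as well. In the fit without a CPM filter, in which 4.39% of all rows were lower at the FDR limit, HOXA5 changed by -1.49 (FDR = 1.06e-07), HOXA7 by -0.76 (FDR = 0.011) and HOXA4 by -0.59 (FDR = 0.0272), each in all 8 animals. HOXA5 was at 1.7, 1.31, 0.907 and 1.45 CPM in Angus 1 to 4 at 0 h and 0.463, 0.327, 0.271 and 0.655 CPM at 2 h. In Holstein 1 to 4 it was at 0.764, 0.951, 0.905 and 0.772 CPM at 0 h and 0.278, 0.444, 0.379 and 0.298 CPM at 2 h. No 2 h value reached a 0 h value. Its fold was 2.8, but its average was under the 1 CPM needed for a call.

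**Figure D4:**
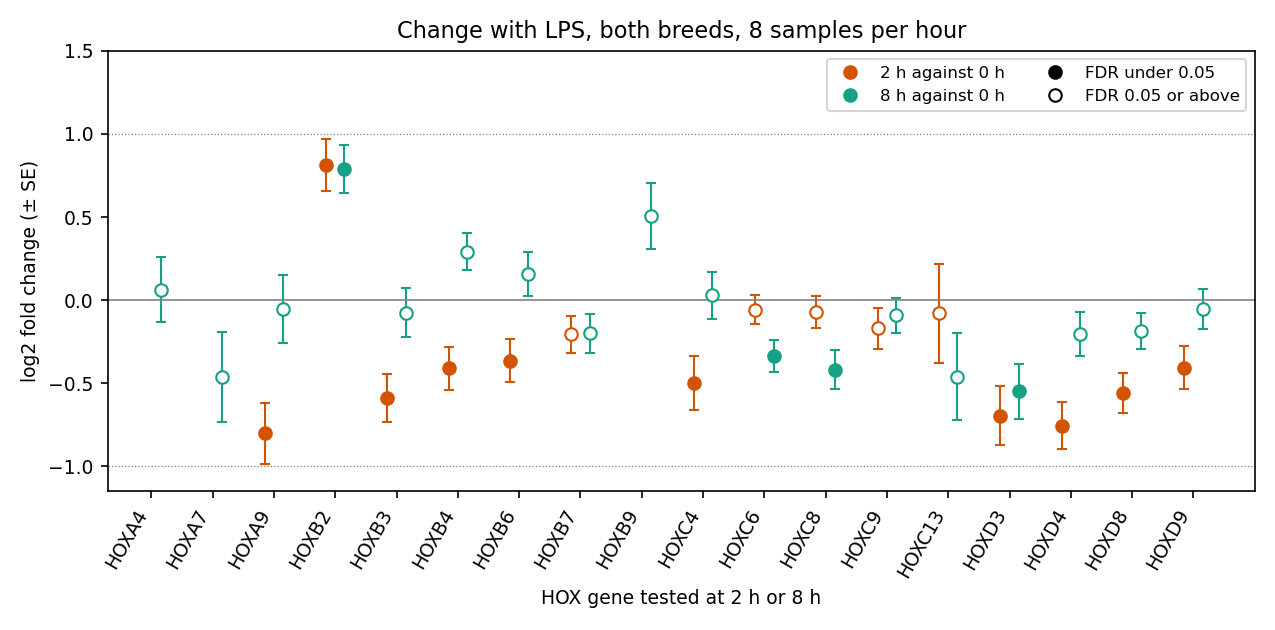
Log2 fold change (vertical axis, with SE) of each HOX gene tested at 2 h (orange, 15 genes) and at 8 h (green, 18 genes) against 0 h, both breeds combined with 8 samples per hour, filled where the FDR was under 0.05, with dotted lines at a fold of 2. At 2 h 9 filled points lie below 0 and HOXB2 lies above it, and at 8 h the filled points are HOXB2 above and HOXC6, HOXC8 and HOXD3 below.

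At 8 h most of these genes were back near their 0 h level. Of 18 genes tested, 0 were called (1.42% of all rows), with 6 at an unadjusted p under 0.05 and 0 called by the other tests. The FDR limit alone was passed by 4 (12.8% of all rows), 1 higher (6.55%) and 3 lower (6.25%). HOXB2 was still up, at 14.8, 11, 14.4 and 11.5 CPM in Angus 1 to 4 and 10.4, 10.1, 10.0 and 9.92 CPM in Holstein 1 to 4. Every value lay above every 0 h value, and the change was 0.79 ± 0.144 (FDR = 2.66e-06), past the limit under all 16 alternatives. The interval after HOXB2 was up by 0.90 (FDR = 1e-05).

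The highest genes of the whole set were lower at this later hour. HOXC8 changed by -0.42 ± 0.118 (FDR = 0.00585) and HOXC6 by -0.34 ± 0.096 (FDR = 0.00689), both in all 8 animals. HOXC6 was at 19.9, 22.2, 25.4 and 22.5 CPM in Angus 1 to 4 at 0 h, 18.3, 19.0, 21.2 and 21.2 CPM at 2 h and 19.4, 16.4, 22.8 and 19.4 CPM at 8 h. In Holstein 1 to 4 it was at 22.3, 23.7, 22.9 and 19.7 CPM at 0 h, 23.4, 22.6, 25.1 and 21.3 CPM at 2 h and 16.2, 16.4, 16.1 and 15.3 CPM at 8 h. All Holstein values at 8 h lay below all Holstein values at the earlier hours, and of the Angus values at 8 h only that of Angus 3 lay within the Angus 0 h range.

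HOXD3 changed by -0.55 ± 0.164 (FDR = 0.0106), with 8 h values of 1.91, 1.65, 1.72 and 1.81 CPM in Angus and 1.47, 1.27, 0.865 and 1.5 CPM in Holstein, and it was not past the limit without Holstein 1 or Holstein 2 or without the 4 samples with other COL1A1 counting. With libraries scaled by total counts alone, HOXC6, HOXC8 and HOXD3 did not pass at 8 h (FDR up to 0.104). With the animal as a replicate block, 8 genes passed the FDR limit (40.7% of all rows), the 4 above and HOXA7, HOXB4, HOXB9 and HOXC13. HOXB9 changed by 0.52 in that fit (FDR = 0.00265) and HOXC13 by -0.45 (FDR = 0.00182), and without the block they were at 0.51 ± 0.201 (FDR = 0.0777) and -0.46 ± 0.262 (FDR = 0.273).

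A comparison of 8 h with 2 h, added after the values by hour were seen, uses the same animals and the same 2 h and 8 h samples as above. Of 16 genes tested, 0 were called (2.76% of all rows), with 10 at an unadjusted p under 0.05 and 0 called by the other tests. The FDR limit alone was passed by 10 (23.8% of all rows), 8 of them higher at 8 h (12.2%) and 2 lower (11.6%). HOXA9 rose by 0.75 ± 0.23 (FDR = 0.00755), HOXB4 by 0.71 ± 0.134 (FDR = 2.98e-06) and HOXD4 by 0.56 ± 0.143 (FDR = 0.000928), each in all 8 animals. HOXB4 reached 5.04, 4.34, 5.38 and 4.16 CPM in Angus 1 to 4 and 5.0, 3.69, 4.13 and 4.6 CPM in Holstein 1 to 4 at 8 h, all above its 2 h values of 2.58 to 3.67 CPM (Angus) and 2.21 to 3.02 CPM (Holstein).

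HOXB3, HOXB6, HOXC4, HOXD8 and HOXD9 were the other genes higher at 8 h than at 2 h, by 0.36 to 0.53. HOXC8 (-0.35, FDR = 0.0121) and HOXC6 (-0.27, FDR = 0.0314) were lower. HOXC4 did not pass without Angus 3 (FDR = 0.0651), and HOXC8 did not pass without Holstein 1 (FDR = 0.0542) or with scaling by total counts. HOXC6 did not pass without Angus 2 or any 1 of the Holstein animals, and HOXD9 not without Angus 2, Angus 3, Holstein 1, Holstein 2 or Holstein 4. Without a CPM filter neither passed (FDR = 0.0827 and 0.109), nor did HOXC6 with scaling by total counts or HOXD9 without the 4 samples with other COL1A1 counting. HOXB2 was not past the limit between these hours, with changes by animal of -0.37 to 0.29 on the scale of log2(CPM + 0.5).

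Summed over its genes, HOXA was at 10.0 ± 0.637, 5.85 ± 1.15 and 10.3 ± 0.918 CPM in Angus and at 8.2 ± 1.15, 4.92 ± 0.92 and 6.99 ± 1.28 CPM in Holstein at 0 h, 2 h and 8 h (SD, n = 4). HOXD was at 15.5 ± 1.25, 10.9 ± 1.46 and 14.7 ± 1.16 CPM in Angus and at 16.2 ± 2.07, 10.5 ± 1.14 and 13 ± 1.03 CPM in Holstein. Both sums were lowest at 2 h in either breed. HOXB was at 27.8 ± 3.4, 30.6 ± 2.11 and 35.6 ± 4.94 CPM in Angus and at 30.7 ± 2.55, 27.7 ± 2.45 and 33.9 ± 0.783 CPM in Holstein, highest at 8 h. The HOXC sum was 95.4 ± 5.36, 83.5 ± 7.12 and 80.7 ± 7.82 CPM in Angus and 84.9 ± 5.75, 83.1 ± 5.85 and 64.7 ± 3.62 CPM in Holstein, lowest at 8 h.

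Whether the breeds differed in these changes was tested with an interaction term. At 2 h, 0 of 15 genes tested were called (0.278% of all rows) and at 8 h 0 of 18 (0.0982%), also with the replicate block, the quasi-likelihood test and DESeq2. At an unadjusted p under 0.05 there was 1 gene at each hour, HOXB4 at 2 h (-0.45 ± 0.23, SE) and HOXD3 at 8 h (-0.61 ± 0.291), each with an FDR of 1.0. The SE of the interaction was 0.146 to 0.418 over the 15 genes at 2 h, against 0.087 to 0.298 for the LPS changes with the breeds combined, and a p that misses the limit does not show that the breeds responded alike.

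The partners and regulators of HOX genes were read from lists. Of 8 genes with a row among the TALE homeodomain proteins, which bind DNA together with HOX proteins, 6 were on, among them MEIS3 (median 25.1 CPM) and MEIS2 (14). At 2 h 2 of these 6 passed the FDR limit (22% of all rows), MEIS1 lower by 1.13 ± 0.168 (FDR = 1.22e-09, called) and PKNOX1 higher by 0.56 ± 0.119 (FDR = 3.45e-05), and the median of the list was -0.07. At 8 h none of the 6 passed (12.8% of all rows). Between breeds over the summed hours, 2 of the 6 passed (19.2% of all rows). PBX3 was lower (-0.50 ± 0.151, FDR = 0.00919) and MEIS3 higher (0.66, FDR = 1.84e-07) in Holstein.

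All 16 genes listed for Polycomb, the repressor complexes that keep unused HOX genes silent, were on. At 2 h 9 of the 16 passed the FDR limit (22% of all rows), 1 higher (10.8%) and 8 lower (11.2%), with a median of -0.24. CBX2, a subunit that binds the repressive mark, was among the called genes (-1.29 ± 0.206, FDR = 1.45e-08), and PHC2 was the 1 that rose (0.43). At 8 h 3 passed (12.8% of all rows), among them JARID2 (-0.35) and PHC2 (0.32). Between breeds over the summed hours, 4 of the 16 passed (19.2% of all rows), 2 higher and 2 lower in Holstein. EZH2, the catalytic subunit that places the repressive methyl mark on histone H3, was lower (-1.02 ± 0.245, FDR = 0.00107), as was CBX2 (-0.635, FDR = 0.041). EZH1, the paralog of EZH2, was higher (0.66, FDR = 0.000369), as was CBX7 (0.49, FDR = 0.0397).

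Of 6 genes with a row that oppose Polycomb, 3 passed at 2 h (22% of all rows), 2 higher and 1 lower, with a median of -0.10, and none at 8 h (12.8%). KDM6B, which removes that methyl mark, rose by 1.90 ± 0.325 (FDR = 3.98e-07) at 2 h and was near its 0 h level at 8 h (0.03 ± 0.149). Between breeds over the summed hours, 2 of these 6 passed (19.2% of all rows). KDM6B was higher (1.13 ± 0.198, FDR = 2.39e-06) and ASH2L lower (-0.355 ± 0.13, FDR = 0.0372) in Holstein. Retinoic acid, which switches on HOX genes of the head end in the embryo, was followed through 15 genes, of which 10 were on. At 2 h 4 of 10 tested passed (22% of all rows), all higher (10.8% of all rows), namely CYP26B1, RXRA, RARA and ALDH1A3, and the median was 0.15. At 8 h 4 passed (12.8% of all rows), 1 higher and 3 lower, with ALDH1A3, which makes retinoic acid, up by 1.88 ± 0.352 (FDR = 1.09e-05). Between breeds over the summed hours, 2 of 10 tested passed (19.2% of all rows). RDH10, an earlier enzyme of retinoic acid synthesis, was 1.53 ± 0.278 higher in Holstein (FDR = 7.84e-06), and CYP26B1 was lower (-0.70 ± 0.24, FDR = 0.0261). None of the 7 genes with a row among the HOX neighbours and the related ParaHox genes was on.

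Of 33 genes with a row among other transcription factors of position in limb, trunk and head mesenchyme, 18 were on. PRRX2 and PRRX1, paired-type factors of limb and head mesenchyme, were the highest, at medians of 317 and 196 CPM. TBX5, of the forelimb, was at a median of 1.62 CPM and at 0.209 to 2.3 CPM over samples. TBX4 and PITX1, of the hindlimb, reached at most 0.0492 and 0.689 CPM in any sample, so that PITX1 overlapped TBX5. EMX2, which patterns the shoulder blade, was at 23.4 CPM. At 2 h 10 of 18 tested passed the FDR limit (22% of all rows), 5 higher and 5 lower, with a median of -0.05. EMX2 fell by 1.13 ± 0.141 (FDR = 1.95e-13) and TBX15 by 0.82 ± 0.143 (FDR = 2.42e-07), while TBX3 rose by 1.62 ± 0.218 (FDR = 1.68e-11) and TWIST2 by 1.05 ± 0.128 (FDR = 4.19e-14). At 8 h 3 of 17 passed (12.8% of all rows), TBX3 (1.00), TWIST2 (0.96) and TWIST1 (-0.36). For the interaction of breed and LPS, 0 genes of these lists passed the FDR limit at either hour (edgeR likelihood-ratio test).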

How the data were processed

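RNA-Seq libraries (TruSeq RNA v2, which does not mark strand) had been made from 24 samples of cultured bovine dermal fibroblasts. The authors aligned reads with NextGENe to UMD v3.1 and deposited, per sample, a table of raw read counts per row, a row being a gene span or a gene-free interval, beside the mean coverage of that row. CASAVA 1.7 is named in the submitters' processing notes. Coverage was used only for bases per count. HOX and marker lists were chosen with earlier results of these data known.

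Counts were analysed over all rows with R 4.3.3 and edgeR 4.0.16 (likelihood-ratio test, TMM scaling, rows at 1 CPM or more in at least 50% of the samples compared, Benjamini-Hochberg adjustment). Calls needed an FDR under 0.05, a fold of 2 and an average above 1 CPM. Changes by animal are log2(CPM + 0.5). Breed was tested at each hour and over the counts summed per animal, and LPS with both breeds combined. Values per sample are given for called genes, for the gene highest per kb in each cluster and, among genes that were on, for the 5 with the largest fold between cultures of a breed. Values per sample of HOXA5, HOXA7, HOXB4, HOXC4 and HOXC6, rows between HOX genes and the genes named from the lists were singled out after their values were seen. Alternatives were the quasi-likelihood F test, DESeq2 1.42.0, RLE size factors, total counts, no CPM filter, symbol rows alone, leaving out each animal or the 4 samples with other COL1A1 counting, and a replicate block. The numbers mark animals, so the block pairs hours of an animal: deviations from group means correlated between 0 h and 2 h at 0.622 on average within an animal (lowest 0.512) and at -0.206 between animals, and for 8 h at 0.573 (lowest 0.465) and -0.191. Centring on the group means makes the values between animals negative, so they are not separate evidence of pairing. The script was tested on simulated data. Some genes of the lists are not reported here. Total counts were 51014538 to 104406293 per sample. The p-values of the breed tests measure the spread between animals, 1 culture each. Those of the test between cultures of a breed measure the spread between the hours of a culture. The LPS and interaction fits without the block treated the hours of an animal as separate samples, so their p-values ignore that pairing.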

Additional observations from a re-analysis of the deposited data

Results flagged for a closer look

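In 96 groups of 4 samples (16 genes that were on, 6 groups each), 3 had a sample far from the other 3 by Dixon's criterion, which chance alone flags in about 1 of 20 groups. HOXC4 was at 6.29 CPM in Angus 3 at 2 h, while the other Angus samples of that hour were at 9.46 to 9.79 CPM. HOXD8 was at 3.59 CPM in Holstein 4 at 0 h, while the others were at 5.11 to 5.3 CPM. HOXD9 was at 2.96 CPM in Holstein 1 at 2 h, while the others were at 3.38 to 3.4 CPM. The first 2 of these samples are among the 4 with other COL1A1 counting, and the part of that counting in the values was not tested.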

How the results depend on the processing

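Leaving out the fold and CPM limits gave 2 HOX genes between breeds at 0 h, 4 at 8 h, 4 over the summed hours, 10 at 2 h and 4 at 8 h with LPS, and 10 between 8 h and 2 h. Leaving out 1 animal gave 0 to 1 called genes between breeds at 2 h and at 8 h. At the FDR limit alone, a count added after the calls were seen, leaving out 1 animal gave 0 to 4 genes at 0 h, 1 to 3 at 2 h, 2 to 5 at 8 h and 1 to 4 over the summed hours. Without the 4 samples with other COL1A1 counting it gave 0 at 0 h and 3 at 2 h, DESeq2 gave 3 at 2 h, and the quasi-likelihood test gave 2 at 8 h. With the animals paired by a replicate block, 8 genes passed at 8 h with LPS against 4 without it, and the block changed no count of called genes. Without a CPM filter 14 genes, of more tested, differed between cultures, and leaving out 1 animal gave 7 to 10. A limit of 10 counts in place of 1 CPM put 26 genes on, and leaving out an animal left 16. The causes were not tested. Of the results for single genes under the alternatives, 462 kept their direction and side of the limit, 87 kept their direction but missed the limit, and none turned. The alternative by coding length was not run, since no protein table was at hand. Genes under 1 CPM rest on few counts, and levels per kb depend on intron length.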

Other observations

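Rows that lie between HOX genes changed with LPS as well, and those given here were chosen after their values were seen. The interval between HOXB7 and HOXB6, at 12.3 CPM on average, changed by -0.81 on the log2 scale at 2 h against 0 h (edgeR likelihood-ratio test over all rows, FDR = 4.89e-10). The interval between HOXC6 and HOXC8, at 17.7 CPM, changed by -0.45 at 2 h (FDR = 0.0338), while HOXC6 and HOXC8 themselves did not pass the limit at that hour. LOC100847387, between HOXD1 and HOXD3, changed by -1.03 at 2 h (FDR = 1.47e-09). The interval between HOXA13 and HOXA11 rose by 1.22 between 2 h and 8 h (FDR = 7.38e-07), and HOXA13 by 1.16 in the fit without a CPM filter (FDR = 0.00465, higher in 7 of 8 animals), with 7 to 70 counts per sample behind HOXA13. The reads of intervals and genes cannot be assigned to a strand.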
